A study of Mus musculus with 42 samples.

Results

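The genes described here encode subunits of chromatin remodelling complexes and their relatives, and were chosen by symbol: every gene named Smarca to Smarce, Chd, Arid1 to Arid5, Ino80, Mta, Mbd or Gatad2 with its number, and Hells, Atrx, Bptf, Rbbp4, Rbbp7, Pbrm1 and Ep400. Of 18193 genes with a probe set of their own on the array, 54 met this rule, and 52 of these were bright enough to be tested. They comprise 13 SWI/SNF subunits, 12 NuRD subunits, 7 genes of the INO80 and EP400 complexes (6 tested), 3 of ISWI and NURF (2 tested), 6 other CHD proteins, 4 other SNF2-family enzymes, 6 other ARID proteins and 3 other methyl-CpG-binding proteins. The rule therefore also takes in genes that are no subunits of a remodeller, such as Arid3a, a transcription factor, and Mbd4, a DNA glycosylase, and 1 antisense RNA, Ino80dos. Mbd5, Arid3c, Smarca5-ps and Smarce1-ps1 match the rule in the RefSeq gene table and have no probe set of their own here.

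Chromatin remodelling complexes use the energy of ATP to slide, evict or exchange nucleosomes, and each is built around an ATPase of the SNF2 family with a set of partner subunits. SWI/SNF (BAF and PBAF) complexes open chromatin at enhancers and promoters, ISWI and NURF complexes space nucleosomes, NuRD joins nucleosome remodelling to histone deacetylation, and INO80 and EP400 complexes exchange histone variants. In the mouse, the SWI/SNF ATPase Smarca4 supplied by the egg is needed when the embryo starts its own transcription, and a Smarca4-containing BAF complex, Chd1 and NuRD take part in the regulation of pluripotent cells.

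Fertilized eggs of B6D2F1 mice received an injection at the 1-cell stage, were cultured, and were collected whole after 20 h or 44 h, and transcript levels were read on 42 Affymetrix arrays. A morpholino is an antisense oligomer that blocks translation or splicing of its target and need not lower its mRNA. At 20 h, 1 experiment compared Oct4 morpholino embryos with uninjected ones, another compared Sall4 morpholino embryos with uninjected ones, and the Nanog experiment held Nanog morpholino, control morpholino and uninjected embryos. At 44 h, Oct4 and Sall4 morpholino embryos shared 1 set of control morpholino and 1 set of uninjected embryos, and the Nanog experiment again had its own 3 groups. Each of the 14 groups had 3 arrays, labelled as biological replicates. No source used here says how many embryos were pooled for an array. All embryos share the strain and the culture, the injected ones also the injection, and, per the labels' treatment protocol, the control oligomer has no target in the mouse.

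Levels are intensities as deposited, and changes are differences of log2(intensity + 16) with their standard error (SE), tested with limma in 1 model over all arrays. A gene was called at an adjusted p under 0.05 over all 15478 genes tested. Array medians run from 193 to 227 on the 18 Nanog arrays and from 26.1 to 33.3 on the other 24, so levels are not comparable between these sets. Correlations between arrays of a group ran from 0.892 to 0.966. The level of Pou5f1, which encodes Oct4, changed at 44 h by -0.82 (SE 0.19, adjusted p = 0.00323) with the Oct4 morpholino, -0.88 (SE 0.19, adjusted p = 0.00455) with the Sall4 and -0.70 (SE 0.19, adjusted p = 0.0236) with the Nanog morpholino, so its fall was not particular to the Oct4 morpholino; at 20 h it did not pass with the Oct4 morpholino (0.22). Sall4 fell with the Oct4 morpholino (-0.76 at 20 h and -0.99 at 44 h), and Sall4 and Nanog did not pass in the embryos injected against them. Whole embryos were hybridised, so fewer cells of a kind and less RNA per cell cannot be told apart. Of 6 markers of the preimplantation embryo, at least 4 lay above the median of their own arrays in every group. Of the markers of other cell types, at most 2 of 8 for cumulus and granulosa cells, 3 of 5 for fibroblasts and stroma and 0 of 2 for blood did so in any group.

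Promoter sequences are shown for 5 of the genes on which the knockdown results turn, to set their upstream bases beside the changes; the RefSeq promoter table, on GRCm38.p6, holds an entry for 41 of the 54 genes. Each run reads 5′ to 3′ on the strand of its gene and, except that of Hells, ends at the base before the annotated start. Capitals mark, on either strand, the GC box GGGCGG, the CCAAT box CCAAT and, in Hells, TTTCCCGC, a motif of the E2F type. The run of Gatad2a lies at chr8:69996403-69996634 on the minus strand, and the others lie on the plus strand: Smarca4 at chr9:21615919-21616105, Arid4b at chr13:14063534-14063608, Arid5a at chr1:36307483-36307732 and Hells at chr19:38930917-38930946. For Hells the 250-base stretch searched lies ahead of an internal start, inside the annotated span of the gene. The run shown was cut to 30 bases around the E2F-type motif, so it holds that motif by construction.
Smarca4: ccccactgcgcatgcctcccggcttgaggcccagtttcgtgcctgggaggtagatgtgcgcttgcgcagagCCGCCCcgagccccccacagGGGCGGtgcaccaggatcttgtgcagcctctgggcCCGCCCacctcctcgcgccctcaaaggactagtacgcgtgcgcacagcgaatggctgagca
Gatad2a: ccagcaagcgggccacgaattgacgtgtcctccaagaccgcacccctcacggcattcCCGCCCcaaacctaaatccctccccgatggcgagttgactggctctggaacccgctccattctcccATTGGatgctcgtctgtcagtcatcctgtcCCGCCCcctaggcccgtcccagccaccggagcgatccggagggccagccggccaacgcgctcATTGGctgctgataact
Hells: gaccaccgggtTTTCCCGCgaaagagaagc
Arid4b: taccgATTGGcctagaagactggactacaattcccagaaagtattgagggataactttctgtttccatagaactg
Arid5a: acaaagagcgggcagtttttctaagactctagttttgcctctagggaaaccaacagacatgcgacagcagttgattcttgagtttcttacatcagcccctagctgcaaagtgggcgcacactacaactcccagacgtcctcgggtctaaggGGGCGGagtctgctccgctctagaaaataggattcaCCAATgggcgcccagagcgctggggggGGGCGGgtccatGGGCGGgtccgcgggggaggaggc
Smarca4, lower with the Oct4 morpholino, has 3 GC boxes in 187 bases, and 22.1% of 27025 promoters hold at least 1 in a stretch of that length. Gatad2a, also lower, has 2 GC boxes and 2 CCAAT boxes in 232 bases, where 30.2% and 33.0% of promoters hold them. Arid5a, higher with the Oct4 and the Nanog morpholino, has 3 GC boxes and 1 CCAAT box in 250 bases (32.9% and 34.5% of promoters), and Arid4b, higher with the Oct4 and the Sall4 morpholino, has 1 CCAAT box in 75 bases (10.2%). The E2F-type motif occurs once in the 250-base stretch of Hells and in none of the other 4, and is in 0.929% of all 250-base stretches. The same stretch of Hells holds 1 GC box, as 32.9% of promoters do, outside the bases shown. The octamer ATGCAAAT, the sequence bound by Oct4 and its relatives, was searched on both strands; it is in 1.61% of all 250-base stretches and not in the stretches of these 5 genes.

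Most of these genes were bright. Of the 54, 41 (75.9%) had a group mean above the median of their own arrays in all 14 groups, against 41.6% of all genes. The ISWI ATPase Smarca5 measured 4112, 4148 and 3971 on the arrays of control-injected embryos at 44 h and 4265, 4185 and 3869 on those of Oct4 morpholino embryos. The other ISWI ATPase, Smarca1, measured 6.14, 7.04 and 3.19 on the same control arrays, passed the filter on low values in no group and was not tested. Ino80b, a subunit of INO80, was the other untested gene. Chd3, a NuRD ATPase, and Smarcd1, an accessory BAF subunit, lay above the median in no group of the Nanog experiment.

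Between 20 h and 44 h, uninjected embryos changed the levels of many of these genes. Of the 2 SWI/SNF ATPases, Smarca2 fell in both sets of experiments, and Smarca4 rose in the Oct4 and Sall4 experiments. In the Nanog experiment, where both times were labelled as 1 experiment, 3 of the 52 genes were higher and 9 lower at 44 h, 23.1% of them, beside 25.6% of all genes (9.28% higher, 16.3% lower). The median change was -0.08 for the 52 and 0.02 for all genes. Between the 20 h groups of the Oct4 and the Sall4 experiment and the 44 h group those experiments shared, 10 were higher and 21 lower, 59.6%, beside 45.5% of all genes (20.4% higher, 25% lower), with medians of -0.19 and -0.06. This second interval crosses separately labelled experiments. The summed intensity of 6 oocyte and egg markers, all above the median of their own arrays in every group, went from 33079 to 37313 at 20 h to 9189 to 11287 at 44 h in the Nanog experiment, and from 16672 to 19163 to between 1561 and 1938 in the others; the part of this shift in the changes below was not tested. Of the genes called, 11 were called in both intervals, 91.7% of the first list and 35.5% of the second, and all 11 had the same direction. Over all genes, 3958 were called in the first interval and 7038 in the second. Of these, 3231 were called in both, and 3215 of the 3231 had the same direction, so the shared direction is not particular to the 11.

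Smarca2, the ATPase that replaces Smarca4 in some BAF complexes, measured 6171, 5883 and 6974 at 20 h and 941, 1621 and 409 at 44 h in the Nanog experiment. In the other experiments it measured 1891, 2046 and 1979 and 1692, 1729 and 2342 at 20 h and 211, 56.3 and 193 at 44 h. No array at 44 h reached a 20 h array of its set. The changes were -2.86 (SE 0.50, adjusted p = 6.05e-05) and -3.69 (SE 0.44, adjusted p = 2.51e-08). Smarca4, which the second interval called, measured 1161, 481 and 971 and 1134, 1112 and 865 at 20 h and 2472, 2047 and 1985 at 44 h, a change of 1.22 (SE 0.21, adjusted p = 1.88e-05). Its second probe set rose as well (1.55, adjusted p = 1.21e-05). On that probe set the 44 h arrays, 1391 to 2383, overlapped the 20 h arrays of the Oct4 experiment, 1262 to 1665. They did not overlap those of the Sall4 experiment, 230 to 340. In the Nanog experiment the change of Smarca4 was 0.28 (SE 0.25, adjusted p = 0.456), with a 95% interval of -0.23 to 0.79. The 95% interval of the change of 1.22 ran from 0.78 to 1.66, and the difference between the sets was not tested. Among the subunits that set BAF apart from PBAF, Arid2 fell in both intervals, with changes of -0.72 (SE 0.17, adjusted p = 0.00162) and -1.78 (SE 0.15, adjusted p = 1.98e-11). Pbrm1, which binds acetylated histones in PBAF, rose in both, with changes of 1.40 (SE 0.38, adjusted p = 0.00611) and 1.18 (SE 0.33, adjusted p = 0.00393). Arid1b, an alternative to Arid1a in BAF, fell in the second interval (-1.39, SE 0.27, adjusted p = 7.61e-05) and changed by 0.02 in the first, where it did not pass. Smarcd3, a BAF accessory subunit known from heart development, was dim at 20 h, at 17.6, 20.8 and 31.7 and 24.8, 51.6 and 21.8, and reached 248, 224 and 183 at 44 h, a change of 2.44 (SE 0.30, adjusted p = 5.35e-08). Smarcc1 and Smarce1, core subunits, rose in that interval by 0.94 and 0.81, with overlapping arrays for Smarce1. Other probe sets of Smarce1 changed by -0.02 and 0.87 and did not pass (limma, adjusted p = 0.97 and 0.364). Those of Smarcc1 changed by 1.46 and 1.93, which passed, and by -0.45, which did not. The core subunits Arid1a, Smarcb1 and Smarcc2 were called in no comparison.

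**Figure D1:**
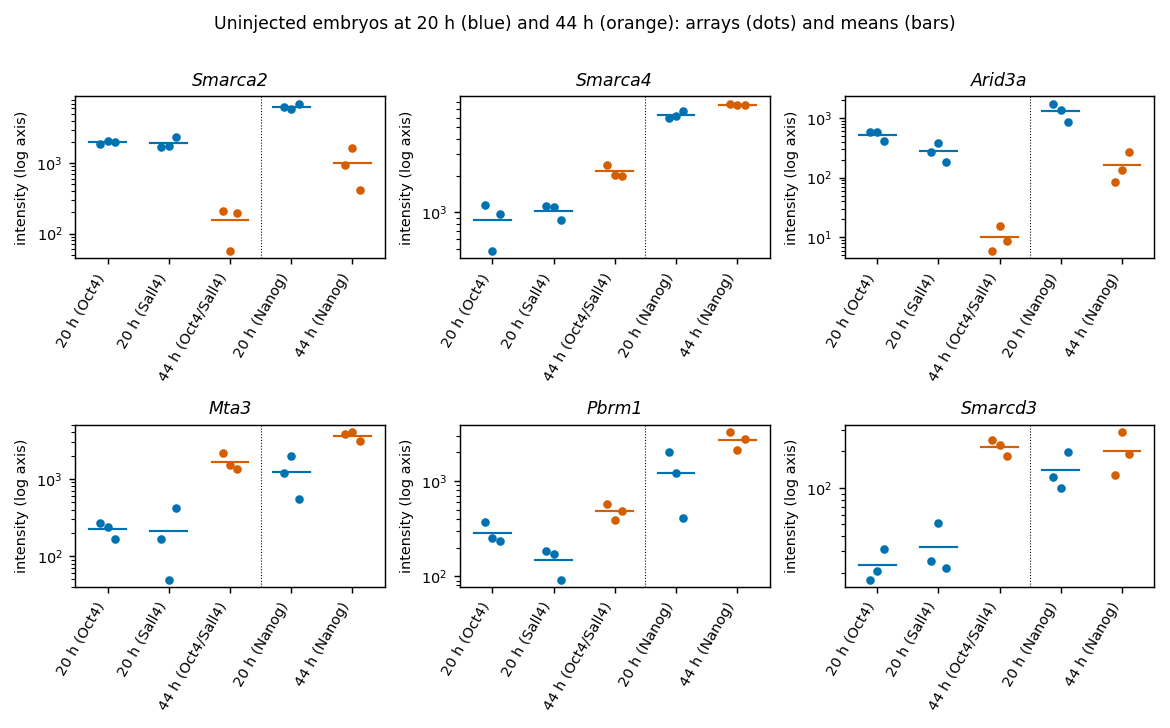
Intensity (log axis) of 6 genes on each array of uninjected embryos at 20 h (blue) and 44 h (orange), with group means as bars; the dotted line separates the arrays of the Nanog experiment, which lie on another scale. Smarca2 and Arid3a are lower at 44 h in both sets, and Mta3 is higher at 44 h, with no overlap in either set for these 3 genes.

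Of the 12 NuRD subunits, 2 rose and none fell in the Nanog experiment, where 9.28% of all genes were higher and 16.3% lower. In the other interval 2 rose and 5 fell, beside 20.4% and 25% of all genes. These 12 genes are too few to set this apart from the background, and no test of the group was run. Some paralogues differed in direction and others did not: Gatad2a and Gatad2b, alternative scaffold subunits, both fell in the second interval (-0.67 and -0.36). Mta3, one of 3 alternative MTA subunits, rose from 1183, 1961 and 543 to 3802, 4037 and 3103 in the Nanog experiment and from 269, 238 and 168 and 165, 49.7 and 420.4 to 2134, 1524 and 1337 in the others, changes of 1.73 (SE 0.45, adjusted p = 0.00453) and 3.03 (SE 0.39, adjusted p = 1.47e-07). Its paralogue Mta1 fell in the second interval (-2.57, SE 0.54, adjusted p = 0.000192) and changed by -1.46 in the first, where it did not pass (adjusted p = 0.0851). The methyl-CpG reader Mbd2 fell in the second interval as well (-3.72, SE 0.79, adjusted p = 0.000235), and Mbd3, which takes its place in another NuRD form, rose (1.08, SE 0.34, adjusted p = 0.0105), with arrays of the 2 times overlapping. Chd4, the main NuRD ATPase, rose in the Nanog experiment, from 2140.2, 2311 and 4458 to 6057, 4823 and 4741 (0.88, SE 0.29, adjusted p = 0.0213), and changed by 0.13 in the other interval, where it did not pass. For Mta3, a second probe set went the other way in the Oct4 and Sall4 experiments (-0.99, adjusted p = 0.0109), at mean intensities of 51.3 and 27.7 at 20 h and 10.9 at 44 h. A second probe set of Ep400 also went the other way in that interval (1.35, adjusted p = 0.0113). Further probe sets of Ep400 fell there and passed, with changes of -1.04, -0.95, -1.68 and -0.71 (limma, adjusted p = 0.00138, 0.0137, 5.29e-05 and 0.0467). The remaining one changed by -0.09 and did not pass.

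Of the 6 ARID proteins outside SWI/SNF, 4 fell and none rose in the Nanog experiment, where 16.3% of all genes were lower and 9.28% higher. In the other interval 5 fell and 1 rose, beside 25% and 20.4% of all genes; 6 genes are too few to set this apart from the background, and no test of the group was run. Arid3a, a DNA-binding transcription factor, measured 1717, 1337 and 864 at 20 h and 84.5, 135 and 270.1 at 44 h in the Nanog experiment. In the other set it measured 569, 575 and 413 and 273, 372 and 185 at 20 h and 5.89, 15.8 and 8.56 at 44 h, again without overlap. Its changes were -2.96 (SE 0.35, adjusted p = 1.33e-07) and -3.91 (SE 0.30, adjusted p = 4.27e-12), among the largest of the 52 genes. Arid5a, an RNA-binding protein known for stabilising cytokine mRNAs, fell from 1705, 872 and 1586 to 70.6, 75.3 and 74 in the Nanog experiment (-3.92, SE 0.50, adjusted p = 5e-07). In the other set Arid5a was dim at both times, and its change of -1.22 (adjusted p = 0.0213) came from overlapping arrays. Arid5b, a partner of the histone demethylase Phf2, fell by 3.07 and by 1.45 on the log2 scale, with overlapping arrays in the second interval. These values come from its brightest probe set. Other probe sets of Arid5b changed by -4.003, -4.608 and -3.164 in the second interval (limma, adjusted p = 5.08e-06, 1.01e-07 and 4.64e-06). In the Nanog experiment the same probe sets changed by -4.658, -2.687 and -3.404, and all passed. Arid4b, which binds the retinoblastoma protein and the SIN3 deacetylase complex, fell by 0.58 in the Nanog experiment and by 1.77 in the other set, and its paralogue Arid4a fell by 1.44 in the latter.

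Of the remaining enzymes, Ep400, the ATPase that loads variant histones together with Tip60, fell in both intervals, with changes of -1.02 (SE 0.28, adjusted p = 0.00592) and -2.03 (SE 0.24, adjusted p = 2.4e-08). The CHD proteins Chd8, a binder of beta-catenin, and Chd9 fell in both as well, with changes of -0.74 and -1.06 for Chd8 and of -2.49 and -2.73 for Chd9; the arrays of Chd8 overlapped in the second. Chd7, the gene mutated in CHARGE syndrome, passed in the second interval (-0.82, SE 0.20, adjusted p = 0.00126) and not in the first (-0.09, SE 0.23, adjusted p = 0.831). Smarcad1, a SNF2 enzyme that maintains heterochromatin at replication forks, and Ino80c, an INO80 subunit, rose in the second interval, with changes of 2.71 (SE 0.33, adjusted p = 4.71e-08) and 2.40 (SE 0.40, adjusted p = 7.4e-06). They changed by 0.38 and 0.35 in the first, where neither passed. The change of 2.71 for Smarcad1 averages over the 20 h arrays of the Oct4 and of the Sall4 experiment, which did not overlap. Those of the Sall4 experiment lay far below those of the Oct4 experiment, and all lay below the 44 h arrays. The size of the rise therefore depends on the 20 h group used. The second probe set of Smarcad1 changed by 0.57 in the second interval and did not pass (adjusted p = 0.0537). Hells, a SNF2 enzyme required for DNA methylation at repeats, changed by 0.26 in the first and by less than 0.01 in the second. The 95% intervals of these changes of Hells were -0.46 to 0.98 and -0.63 to 0.62. Smarca5, Atrx, a chromatin enzyme that deposits a histone variant at heterochromatin, and Ino80 passed in neither interval.

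Single arrays carried several of these calls. In the Nanog experiment, the call on Pbrm1 was lost without 20 h array 3 (adjusted p = 0.121); the call on Mta3 was lost without 20 h array 3 (adjusted p = 0.0631); the call on Ep400 was lost without 20 h array 3 (adjusted p = 0.066). The call on Chd4 was lost without 20 h array 1 or 2 or 44 h array 1 (adjusted p = 0.13, 0.0918 and 0.0902, in that order). The call on Chd8 was lost without 20 h array 1 or 2 or 44 h array 2 or 3 (adjusted p = 0.0586, 0.0839, 0.0626 and 0.0546, in that order). The call on Chd9 was lost without 20 h array 1, 2 or 3 or 44 h array 2 (adjusted p = 0.0622, 0.0882, 0.105 and 0.442, in that order); Chd9 measured 1788, 70.9 and 1419.9 on the 44 h arrays. In the other interval, the call on Mbd3 was lost without 44 h array 1 (adjusted p = 0.105); the call on Arid3b was lost without 44 h array 1 (adjusted p = 0.104); the call on Arid5b was lost without 44 h array 2 (adjusted p = 0.0526). The calls on Smarca2, Arid3a, Arid5a, Arid5b and Arid2 in the Nanog experiment held in all 17 alternatives run for each. With the mean of a gene's probe sets, the calls on Arid4b, Mta3, Pbrm1, Chd4 and Chd9 in the Nanog experiment were lost (adjusted p = 0.21, 0.0876, 0.0963, 0.0626 and 0.0556), and so were those on Pbrm1, Smarce1 and Arid3b in the other interval (adjusted p = 0.063, 0.0573 and 0.248).

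**Figure D2:**
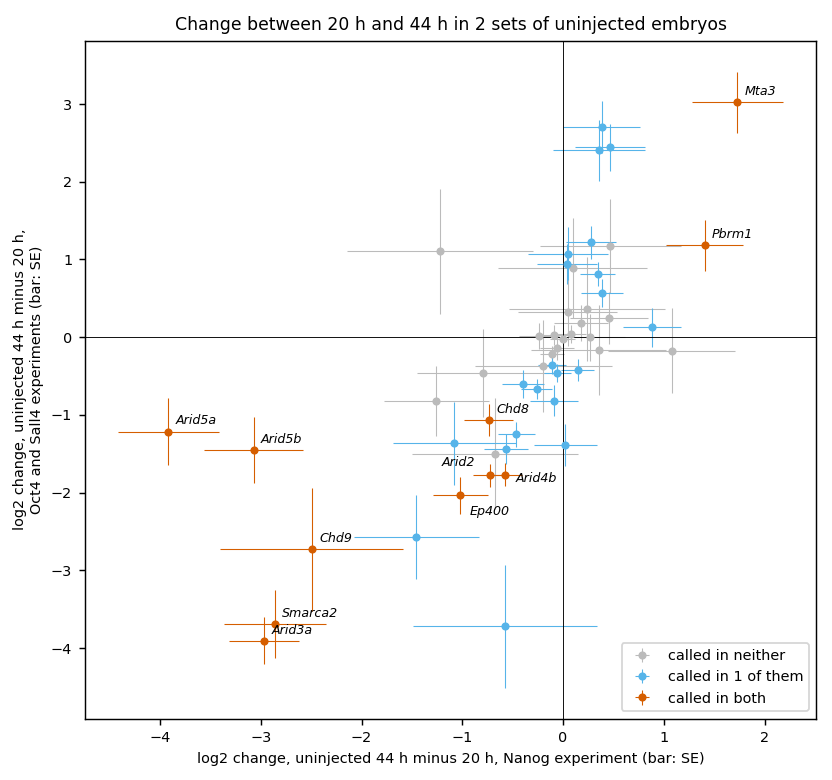
Change between 20 h and 44 h in uninjected embryos (log2, with SE bars) for the 52 tested genes, in the Nanog experiment (horizontal) and between the Oct4 and Sall4 experiments' groups (vertical). The 11 genes called in both (orange, named) lie 9 in the lower left and 2, Mta3 and Pbrm1, in the upper right.

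At 44 h the Oct4 morpholino was set against the control morpholino, which asks which of these genes differ in level between the embryos given each. Hells was far lower, Smarca4, Gatad2a and Ino80d were lower, and Chd1, Arid4b and Arid5a were higher. These 3 rises and 4 falls make 13.5% of the 52 genes, beside 11.6% of all genes called (5.38% higher, 6.18% lower). That share is near the background. The median of the 52 was -0.13 and that of all genes 0.02. The summed intensity of the 6 oocyte and egg markers was 1738 to 1948 with the control and 2207 to 2879 with the Oct4 morpholino, and that of the 6 embryo markers 12210 to 14186 and 7996 to 10219; the part of these shifts in the calls was not tested.

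Hells had the largest change. It measured 809.7, 858 and 1517 in control-injected embryos and 20.1, 146 and 92.2 in Oct4 morpholino embryos. All 3 Oct4 morpholino arrays lay below every other array of the Oct4 and Sall4 experiments, and the change was -3.59 (SE 0.35, adjusted p = 3.58e-08). At 20 h the Oct4 morpholino arrays measured 1079.5, 996 and 800.2 against 1300.1, 984 and 1376 in uninjected embryos, a change of -0.34 (SE 0.35, adjusted p = 0.936). The Hells values of Sall4 morpholino embryos at 44 h, 1184, 1133 and 1349, overlapped those of the controls. The 2 other probe sets of Hells did not pass: they changed by 0.46 and -0.60, at control means of 51.4 and 40.6 on these arrays. With the mean of the 3 probe sets in place of the brightest, the change was -1.24 and the call was lost (adjusted p = 0.0762). Over the alternatives run for Hells the adjusted p ran from 6.85e-09 to 0.0762, and no other alternative lost the call.

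Smarca4 measured 1816, 1961 and 2499 with the control and 670.5, 657 and 680.5 with the Oct4 morpholino, a change of -1.61 (SE 0.25, adjusted p = 3.74e-05). The 3 Oct4 morpholino arrays are close together and lie below all controls. Its second probe set fell as well (-2.45, adjusted p = 1.78e-06). Smarca2, the alternative ATPase, changed by 0.24 (SE 0.50, adjusted p = 0.857), and no other SWI/SNF subunit of the 13 passed. Gatad2a, which links the MBD and CHD subunits of NuRD, measured 4068, 4002 and 3824 with the control and 2067, 2245 and 2304 with the Oct4 morpholino, again with no overlap (-0.84, SE 0.15, adjusted p = 0.000334). Another of its probe sets passed in the same direction (-0.53, adjusted p = 0.0243). Ino80d, an INO80 subunit, measured 2207, 2410.2 and 2108 against 1915, 1339 and 1499 (-0.51, SE 0.16, adjusted p = 0.0337).

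The 3 rises were of different kinds. Arid4b measured 1007, 951 and 802 with the control and 1748, 2125 and 2089 with the Oct4 morpholino (1.10, SE 0.17, adjusted p = 5e-05), and all Oct4 morpholino arrays were above all controls. Chd1, a remodeller that binds methylated histone tails at active promoters, measured 1195, 1669 and 1188 and 2233, 2833 and 2018 (0.80, SE 0.20, adjusted p = 0.00596), without overlap. Other probe sets of Chd1 changed by -0.02, 1.07 and -0.29, and none of them passed (limma, adjusted p = 0.991, 0.236 and 0.863). Arid5a was near the bottom of the scale in the controls, at 4.01, 3.32 and 2.9, and measured 64.2, 50.7 and 109.9 with the Oct4 morpholino (2.18, SE 0.50, adjusted p = 0.00357). The size of this last change depends on the pseudocount, 4.04 with a pseudocount of 1 and 1.02 with 64.

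The calls on Smarca4 and Arid4b held in all 17 alternatives, with adjusted p-values of up to 0.00509 and 0.0466. Gatad2a lost its call with the mean of its probe sets (adjusted p = 0.0601), Arid5a with a pseudocount of 64 (adjusted p = 0.109), and Chd1 with the mean of its probe sets (adjusted p = 0.387) or the experiment's own arrays (adjusted p = 0.0743). The call on Ino80d was lost without control array 1, 2 or 3 or Oct4 morpholino array 2 or 3 (adjusted p = 0.0732, 0.131, 0.0545, 0.165 and 0.0967, in that order). Over its alternatives the adjusted p of Ino80d ran from 0.0129 to 0.178.

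**Figure D3:**
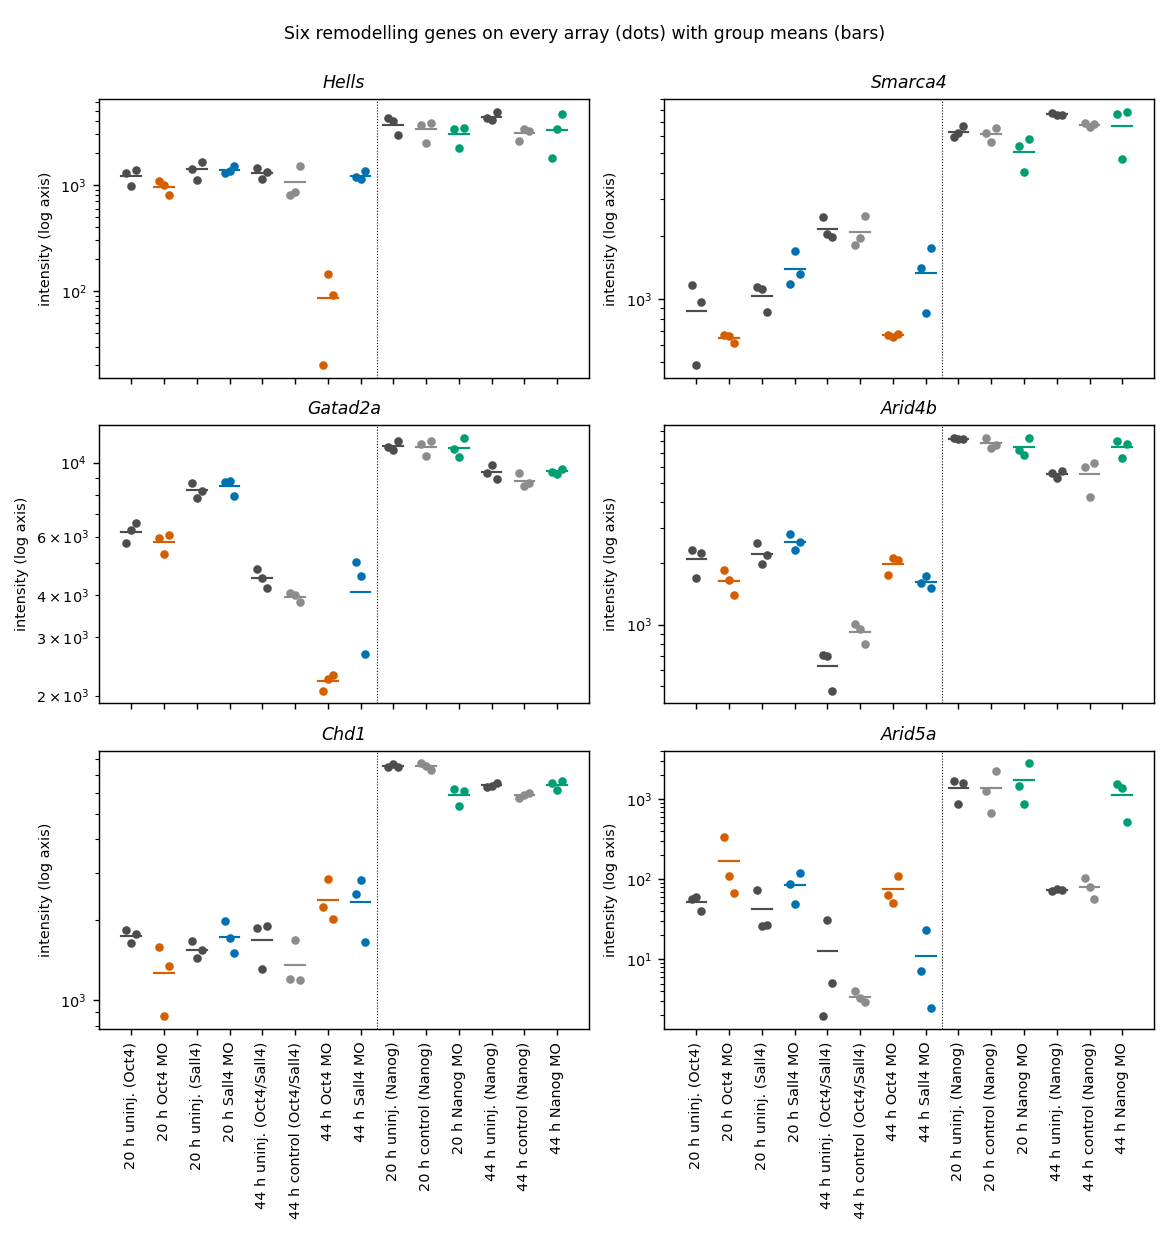
Intensity (log axis) of 6 genes on all 42 arrays (dots) with group means (bars), for 20 h and 44 h groups of the Oct4 and Sall4 experiments to the left of the dotted line and of the Nanog experiment, on another scale, to the right. Hells is lowest on the 3 arrays of Oct4 morpholino embryos at 44 h (20.1 to 146), and Arid5a is higher in Nanog morpholino embryos at 44 h (511 to 1536) than in both groups beside them.

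With the Sall4 morpholino, the same control arrays were used, so its calls and those of the Oct4 morpholino are not independent. Smarcd3 and Rbbp7 were lower and Chd1 and Arid4b higher, 7.69% of the 52 genes beside 3.97% of all genes (1.83% higher, 2.13% lower). The medians were -0.01 and -0.02. The summed intensity of the oocyte and egg markers was 3142 to 3989 with the Sall4 morpholino, against 1738 to 1948 in the controls, and that of the embryo markers was 8835 to 12739, which overlaps the controls; their part in the calls was not tested. Smarcd3 measured 175, 333 and 206 with the control and 91.9, 28.5 and 65.4 with the Sall4 morpholino, with no overlap (-1.75, SE 0.35, adjusted p = 0.00247), and held its call in all 16 alternatives. With the Oct4 morpholino Smarcd3 measured 121, 153 and 69.3 and with the Nanog morpholino 87.4, 98 and 96.7, where the changes of -0.97 and -1.10 did not pass (adjusted p = 0.0679 and 0.0612). Rbbp7 measured 4189, 4019 and 4067 and 3268, 2785 and 3083, a small change of -0.43 (SE 0.13, adjusted p = 0.0476).

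Arid4b measured 1611, 1729.7 and 1523 with the Sall4 morpholino, above all controls (0.81, SE 0.17, adjusted p = 0.00507), beside 1.10 with the Oct4 morpholino. Chd1 measured 2505, 2818 and 1644, and 1 of these arrays was below the highest control (0.76, SE 0.20, adjusted p = 0.0223), beside 0.80 with the Oct4 morpholino. Its other probe sets changed by 0.0039, 1.06 and 0.86 with the Sall4 morpholino, and none of them passed (limma, adjusted p = 0.999, 0.358 and 0.574). Smarca4, at 1401, 853 and 1756, changed by -0.69 (SE 0.25, adjusted p = 0.121), and Hells by 0.26 (SE 0.35, adjusted p = 0.837); neither passed. The call on Chd1 was lost without control array 1 or 3 or Sall4 morpholino array 1 or 2 (adjusted p = 0.0976, 0.114, 0.0779 and 0.181, in that order); over its alternatives the adjusted p of Chd1 ran from 0.00286 to 0.181. The call on Rbbp7 was lost without control array 1, 2 or 3 or Sall4 morpholino array 2 or 3 (adjusted p = 0.128, 0.111, 0.118, 0.234 and 0.0676, in that order); over its alternatives it ran from 0.0204 to 0.472. Fitted on the experiment's own arrays, Arid4b, Chd1 and Rbbp7 did not pass (adjusted p = 0.0751, 0.163 and 0.22).

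Setting Oct4 against Sall4 morpholino embryos at 44 h tests the difference between the knockdowns. Hells, Smarcd1, Smarca4 and Gatad2a were lower and Smarcd2 and Arid5a higher with the Oct4 morpholino, 11.5% of the 52 beside 7.07% of all genes (3.71% higher, 3.36% lower), with medians of -0.05 and 0.03. The differences were -3.85 (SE 0.35, adjusted p = 1e-08) for Hells, -0.92 (SE 0.25, adjusted p = 0.0181) for Smarca4 and -0.83 (SE 0.15, adjusted p = 0.000631) for Gatad2a. Gatad2a measured 5019, 4574 and 2668 with the Sall4 morpholino, which its Oct4 morpholino values do not reach. Smarcd1 and Smarcd2, alternative BAF subunits, went opposite ways: Smarcd1 measured 19.8, 13 and 9.56 against 86.7, 62.9 and 70.7 (-1.58, SE 0.49, adjusted p = 0.0467) and Smarcd2 3041, 4089 and 3128 against 2559.5, 1462 and 2729 (0.64, SE 0.18, adjusted p = 0.0293). Arid5a differed by 1.77 (SE 0.50, adjusted p = 0.0243). The call on Smarca4 was lost without Sall4 morpholino array 1 or 3 (adjusted p = 0.0683 and 0.125, in that order). The call on Smarcd1 was lost without Oct4 morpholino array 1, 2 or 3 or Sall4 morpholino array 1, 2 or 3 (adjusted p = 0.066, 0.101, 0.13, 0.13, 0.0797 and 0.0906, in that order). The call on Smarcd2 was lost without Oct4 morpholino array 2 or Sall4 morpholino array 2 (adjusted p = 0.149 and 0.284, in that order). The call on Arid5a was lost without Oct4 morpholino array 3 or Sall4 morpholino array 1 or 3 (adjusted p = 0.112, 0.0758 and 0.104, in that order). With the mean of all probe sets the differences of Hells and Gatad2a did not pass (adjusted p = 0.231 and 0.644), and on the experiment's own arrays those of Smarca4, Gatad2a and Smarcd2 did not (adjusted p = 0.0634, 0.0614 and 0.183).

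In the Nanog experiment at 44 h, Arid5a was higher and Arid1b lower with the Nanog morpholino than with the control, 3.85% of the 52 beside 5.01% of all genes (3.44% higher, 1.56% lower), with medians of 0.03 and 0.05. The oocyte and egg markers summed to 8055 to 12146 with the control and 16550 to 21480 with the Nanog morpholino, and the embryo markers to 31188 to 32069 and 23811 to 28317. The fibroblast and stroma markers summed to 440.15 to 2591 and 451 to 824, which overlap. The part of these lists in the calls was not tested. Arid5a measured 103, 79.5 and 56.1 with the control, 70.6, 75.3 and 74 in uninjected embryos and 1536, 1371 and 511 with the Nanog morpholino, and no array of the last group overlaps the others. The change was 3.48 (SE 0.50, adjusted p = 6.41e-05), which held in all 17 alternatives (adjusted p up to 0.00317). At 20 h the values were 1266, 663 and 2258 with the control and 1465, 879.7 and 2808 with the Nanog morpholino, a change of 0.31 (SE 0.50, adjusted p = 1). The difference between the changes at the 2 times was 3.17 (SE 0.71, adjusted p = 0.0227), the 1 such call among the 52 genes beside 0.827% of all genes (0.614% higher, 0.213% lower). The call on Arid5a was lost without 20 h control array 1 or 3, 20 h Nanog morpholino array 1 or 2 or 44 h Nanog morpholino array 1 (adjusted p = 0.0516, 0.0748, 0.0502, 0.0704 and 0.0703, in that order), and over its alternatives the adjusted p ran from 0.00626 to 0.181. The Nanog morpholino arrays at 44 h lie within or just below the range of the 20 h arrays, while the control and uninjected arrays at 44 h lie far below it.

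Arid1b measured 2840.3, 3162 and 3236 with the control and 599.9, 1930.0 and 2722 with the Nanog morpholino, all lower but widely spread (-1.06, SE 0.31, adjusted p = 0.0433). The call on Arid1b was lost without control array 1, 2 or 3 or Nanog morpholino array 1 (adjusted p = 0.0748, 0.131, 0.105 and 0.483, in that order); over its alternatives the adjusted p ran from 0.00257 to 0.483. Chd8 measured 6503, 5017 and 4812 with the Nanog morpholino and 3252, 3051 and 3699.7 with the control, a change of 0.70 (SE 0.24, adjusted p = 0.0962) that did not pass. Hells and Smarca4 changed by -0.01 (SE 0.35, adjusted p = 0.998) and -0.05 (SE 0.25, adjusted p = 0.967), and the Nanog morpholino arrays of Hells, 1781, 3379 and 4671, spread around the controls, 2606, 3352 and 3259.6.

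**Figure D4:**
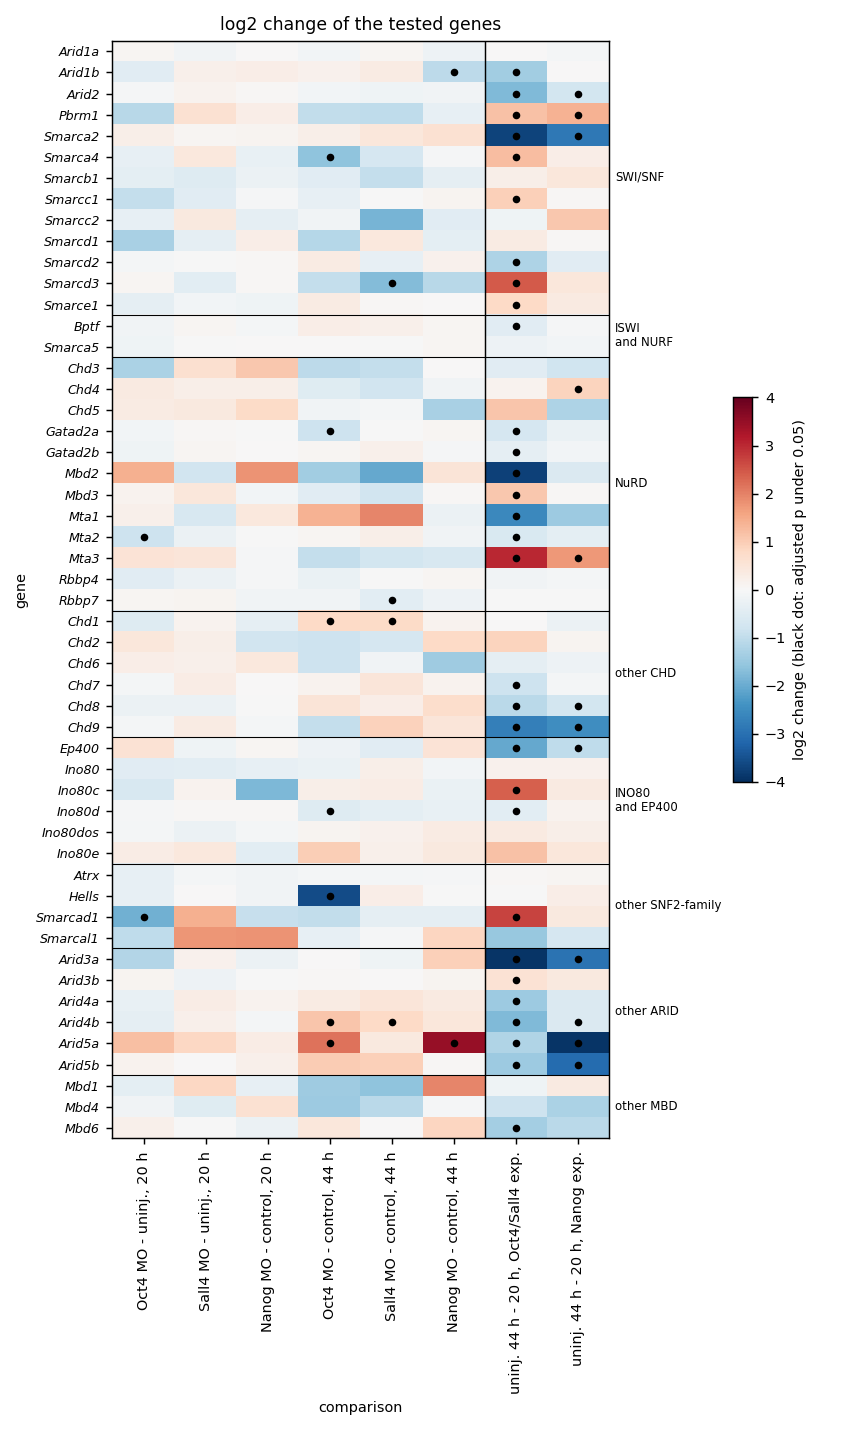
Log2 change (colour, from -4 to 4) of the 52 tested genes, ordered by complex, in 6 comparisons of a morpholino with its control or uninjected embryos and 2 intervals in uninjected embryos; a black dot marks an adjusted p under 0.05. The 3 columns at 20 h hold 2 dots, the 3 knockdown columns at 44 h hold 7, 4 and 2, and the 2 time columns 31 and 12.

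Against uninjected embryos at 44 h the knockdown calls were 3 higher and 6 lower for Oct4 (17.3% of the 52, beside 14.4% of all genes, 7.2% higher and 7.21% lower), 1 higher and 2 lower for Sall4 (5.77%, beside 6.95%, 3.57% higher and 3.39% lower) and 2 higher and 0 lower for Nanog (3.85%, beside 8.37%, 5.06% higher and 3.31% lower). For Oct4, Hells (-3.93), Smarca4 (-1.67), Gatad2a (-1.02), Ino80d (-0.47), Arid4b (1.65) and Arid5a (1.75) passed as they did against the control, a comparison that shares the morpholino arrays, and Chd1 did not. Smarcd1, Smarcad1 and Chd8 (0.71, SE 0.24, adjusted p = 0.0444) passed here and not against the control: Smarcd1 measured 209.6, 141 and 149 in uninjected, 83.1, 38.5 and 37.3 in control-injected and 19.8, 13 and 9.56 in Oct4 morpholino embryos. The control-injected arrays of Smarcd1 lie between the other groups, and its change against the control was -1.15 (adjusted p = 0.14). Smarcad1 measured 668, 968 and 1141, 513, 825 and 647 and 307, 287 and 367 in the same order (-1.46, SE 0.38, adjusted p = 0.00794), and its second probe set did not pass (-0.38, adjusted p = 0.456). For Sall4, Smarcd3 (-1.67), Rbbp7 (-0.41) and Arid4b (1.37) passed, and for Nanog, Arid5a (3.55) and Chd8 (0.76, SE 0.24, adjusted p = 0.0453). In the Nanog comparison, the call on Chd8 was lost without uninjected array 1, 2 or 3 or Nanog morpholino array 1 or 2 (adjusted p = 0.0792, 0.131, 0.0952, 0.187 and 0.0694, in that order). In that of Oct4, the call on Chd8 was lost without uninjected array 2 or 3 or Oct4 morpholino array 2 or 3 (adjusted p = 0.0829, 0.276, 0.155 and 0.106, in that order), the call on Ino80d was lost without uninjected array 1 or 3 or Oct4 morpholino array 2 or 3 (adjusted p = 0.09, 0.181, 0.206 and 0.123, in that order), and the call on Arid5a was lost without uninjected array 1 or 3 or Oct4 morpholino array 3 (adjusted p = 0.0831, 0.0681 and 0.0818, in that order). In that of Sall4, the call on Rbbp7 was lost without uninjected array 1 or 2 or Sall4 morpholino array 2 or 3 (adjusted p = 0.0983, 0.2, 0.194 and 0.0644, in that order).

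At 20 h few of these genes passed. With the Oct4 morpholino, compared with uninjected embryos because no control-injected group of this experiment is among the samples at this time, Smarcad1 and Mta2 were lower and none was higher, 3.85% of the 52 beside 2.02% of all genes (0.174% higher, 1.84% lower), with medians of -0.14 and -0.02. The oocyte and egg markers summed to 16672 to 17988 in uninjected and 18376 to 20594 in Oct4 morpholino embryos; their part in the calls was not tested. Smarcad1 measured 356, 318 and 307 in uninjected and 104, 96.1 and 37.7 in Oct4 morpholino embryos (-1.93, SE 0.38, adjusted p = 0.00361), with no overlap. Its second probe set did not pass (-0.73, adjusted p = 0.272). Mta2, a NuRD subunit, measured 2413, 1537 and 2327 and 1436, 1064 and 1021 (-0.81, SE 0.21, adjusted p = 0.0345). The call on Smarcad1 was lost without Oct4 morpholino array 3 (adjusted p = 0.0517). The call on Mta2 was lost without uninjected array 1 or 3 or Oct4 morpholino array 2 or 3 (adjusted p = 0.244, 0.188, 0.156 and 0.177, in that order). On the experiment's own arrays neither passed (adjusted p = 0.0708 for Smarcad1 and 0.173 for Mta2). With the Sall4 morpholino limma called 0 of the 52 (0.233% of all genes, 0.149% higher and 0.084% lower; 2 of the 52 at an unadjusted p under 0.05), and with the Nanog morpholino 0 (0.62% of all genes, 0.233% higher and 0.388% lower; 3 at an unadjusted p under 0.05). Those 5 results were of Smarcad1 (1.42) and Smarcal1, an enzyme that restarts replication forks (1.77), with the Sall4 morpholino, and of Ino80c (-1.81), Smarcad1 (-0.93) and Smarcal1 (1.81) with the Nanog morpholino. The change of Smarcad1 at 20 h was -1.93 with the Oct4 morpholino and 1.42 with the Sall4 morpholino, where it did not pass (adjusted p = 0.108). The uninjected embryos of these experiments measured 356, 318 and 307 and 78.2, 25.8 and 34; the difference between the knockdowns was not tested.

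Injection of the control morpholino called none of the 52 against uninjected embryos with limma: 0 at 44 h beside the Oct4 and Sall4 morpholinos (0.0969% of all genes, 0.0646% higher and 0.0323% lower), 0 at 44 h in the Nanog experiment (0.349%, 0.168% higher and 0.181% lower) and 0 at 20 h there (0.0905%, 0.0581% higher and 0.0323% lower). At an unadjusted p under 0.05 there were 5, 2 and 1. The 5 were Mbd2 (3.04), Smarcd1 (-1.45), Arid5b (-1.18), Arid4b (0.55) and Arid2 (0.46), and Arid4b is among the genes called in the Oct4 and Sall4 morpholino embryos, where its change was larger.

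Some of the ATPases passed in the knockdowns and others did not, and of all genes tested 80.9% were called in none of the 6 comparisons. Over the 6 comparisons of a morpholino with its control, or with uninjected embryos for Oct4 and Sall4 at 20 h, Smarca4, Hells, Chd1 and Smarcad1 were the ATPases called. Smarca5 changed by -0.17 to 0.07, Atrx by -0.34 to -0.04, Ino80 by -0.44 to 0.22, Chd7 by -0.06 to 0.49, Chd4 by -0.76 to 0.37, Chd8 by -0.24 to 0.70, Ep400 by -0.44 to 0.59 and Smarca2 by 0.09 to 0.60, and none of these passed. For Smarca5, whose SE was 0.12, the 95% intervals reach from -0.41 to 0.31, and for Smarca2, with an SE of 0.50, from -0.94 to 1.63. Of the 52 genes, 40 were called in none of the 6, 9 in 1 and 3 in 2, which are Arid4b, Arid5a and Chd1. These are 76.9%, 17.3% and 5.77% of the 52, beside 80.9%, 15.3% and 3.42% of all genes tested. Over all 16 comparisons 16 (30.8%, beside 39.7% of all genes) were never called: Arid1a, Smarcb1 and Smarcc2 of SWI/SNF, Smarca5, the NuRD subunits Chd3, Chd5 and Rbbp4, Chd2, Chd6, Ino80, Ino80e and Ino80dos, Atrx, Smarcal1, Mbd1 and Mbd4.

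The knockdown calls at 44 h against the control can be set beside the direction over time in uninjected embryos, which share no array with them. Of the 7 genes called with the Oct4 morpholino, 5 also changed between 20 h and 44 h (71.4% of the 7 and 16.1% of the 31). Smarca4, Arid4b and Arid5a went opposite ways, and Gatad2a and Ino80d went the same way. For Ino80d this rests on its brightest probe set, which changed by -0.42 over time. Another probe set of Ino80d rose over time (1.16, adjusted p = 0.00396), and the remaining one changed by 0.36 and did not pass (adjusted p = 0.276). Among all genes called in both, 971 of 1192 (81.5%) were opposite, against 60% of these 5. With the Sall4 morpholino both genes called in both, Arid4b and Smarcd3, were opposite (89.5% of 449 genes), and with the Nanog morpholino the 1 gene, Arid5a, was opposite (95.8% of 451 genes).

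Partner subunits whose symbols lie outside the rule were listed from textbook knowledge, 59 in all, of which 52 were tested. At 44 h against the control, 8 fell and 0 rose with the Oct4 morpholino, 5 fell and 0 rose with the Sall4 morpholino and 2 fell and 0 rose with the Nanog morpholino, 15.4%, 9.62% and 3.85% of the 52, beside 11.6%, 3.97% and 5.01% of all genes. Against uninjected embryos 2 rose and 9 fell, 2 rose and 4 fell, and 1 rose and 2 fell (21.2%, 11.5% and 5.77%, beside 14.4%, 6.95% and 8.37%). The genes called against the control with the Oct4 morpholino were Actr8 (-2.91, SE 0.54, adjusted p = 0.000439), an actin-related subunit of INO80, Vps72 (-2.57, SE 0.55, adjusted p = 0.00197), a chaperone of variant histone in SRCAP and TIP60, Dpf2 and Actb of BAF, Baz2a and Cecr2 of ISWI, Yeats4 of TIP60, and Hdac1, the NuRD deacetylase (-0.58, SE 0.14, adjusted p = 0.00514). The call on Dpf2 was lost without control array 1, 2 or 3 or Oct4 morpholino array 1 or 3 (adjusted p = 0.0941, 0.103, 0.111, 0.198 and 0.0659, in that order). The call on Baz2a was lost without control array 2 or Oct4 morpholino array 1 or 3 (adjusted p = 0.0696, 0.0638 and 0.125, in that order). The call on Cecr2 was lost without control array 1 or 2 or Oct4 morpholino array 2 or 3 (adjusted p = 0.0937, 0.0926, 0.0553 and 0.0973, in that order). Fitted on the experiment's own arrays, Dpf2, Baz2a, Cecr2, Yeats4 and Hdac1 did not pass (adjusted p = 0.0679, 0.0863, 0.12, 0.0542 and 0.0559), while Actr8, Vps72 and Actb kept their calls against the control in every alternative run for them. With the mean of all probe sets Dpf2 and Baz2a did not pass (adjusted p = 0.772 and 0.0526), and with quantile normalization Dpf2, Baz2a, Cecr2 and Hdac1 did not (0.0874, 0.0943, 0.136 and 0.0855). Those with the Sall4 morpholino were Dpf3, Vps72, Rsf1, Ruvbl2 and Actb, changes of -2.05, -2.05, -1.34, -1.19 and -0.81. The call on Dpf3 was lost without control array 1, 2 or 3 or Sall4 morpholino array 2 (adjusted p = 0.0684, 0.072, 0.193 and 0.312, in that order). The call on Vps72 was lost without control array 1, 2 or 3 or Sall4 morpholino array 2 (adjusted p = 0.0543, 0.148, 0.0605 and 0.232, in that order). The call on Rsf1 was lost without control array 2 or 3 or Sall4 morpholino array 2 (adjusted p = 0.129, 0.0639 and 0.222, in that order). The call on Ruvbl2 was lost without control array 2 or 3 or Sall4 morpholino array 1 or 2 (adjusted p = 0.0702, 0.108, 0.0602 and 0.149, in that order). The call on Actb was lost without control array 1 or 2 or Sall4 morpholino array 2 (adjusted p = 0.0613, 0.0731 and 0.174, in that order). None of these 5 passed on the experiment's own arrays (adjusted p = 0.0690 to 0.0846), nor did Dpf3 and Rsf1 with the mean of all probe sets (0.0556 and 0.379) or Actb with quantile normalization (0.181). With the Nanog morpholino Bcl11b (-1.51, SE 0.35, adjusted p = 0.00916) and Brd7 (-0.67), 2 BAF-associated factors, fell. The call on Bcl11b was lost without Nanog morpholino array 1 (adjusted p = 0.0871). The call on Brd7 was lost without control array 1, 2 or 3 or Nanog morpholino array 1, 2 or 3 (adjusted p = 0.0687, 0.155, 0.112, 0.188, 0.0794 and 0.0542, in that order), and with the mean of its probe sets the adjusted p of Brd7 was 0.825. Hdac1 was also the 1 partner called at 20 h, with the Oct4 morpholino (-0.68, SE 0.14, adjusted p = 0.00533), which is 1.92% of the 52, beside 2.02% of all genes. It did not pass there on the experiment's own arrays or with quantile normalization (adjusted p = 0.103 and 0.0802). Over time in uninjected embryos, 7 partners rose and 6 fell in the Nanog experiment (25% of the 52, beside 25.6% of all genes), and 18 rose and 11 fell in the other set (55.8%, beside 45.5%). Bcl7c, a BAF subunit, changed by -5.05 (SE 0.44, adjusted p = 6.93e-10) and -3.11 (SE 0.38, adjusted p = 5.69e-08), and Dmap1, a subunit of TIP60, by 2.61 (SE 0.42, adjusted p = 1.72e-05) and 3.40 (SE 0.36, adjusted p = 3.57e-09).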

How the data were processed

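Transcript levels were read on Affymetrix arrays after amplification with the NuGEN WT-Ovation One-Direct kit, per the labels' protocols. The authors deposited 1 table of linear intensity per probe set and array; its background correction and normalisation are steps not given in the sources used here. Values were taken as log2(intensity + 16) without further scaling. Of 45101 probe sets, 34945 have 1 gene symbol in the platform annotation, 932 have several and 64 are controls; symbols were checked against RefSeq through 34741 matched Entrez identifiers and 0 changed. Where a gene had several probe sets, the one of highest mean over all 42 arrays stands for it. Genes whose mean exceeded 6.45, the log2 value of the table's median of 71.15 plus 16, in at least 1 group were tested. Group means were fitted over all arrays with limma 3.58.1 (R 4.3.3), with 28 residual degrees of freedom, moderated variances and Benjamini-Hochberg adjustment over 15478 genes; the procedure was tested on simulated data. An exact permutation test of 3 against 3 arrays cannot go below p = 0.1, so none was used. The number of arrays limits the precision. The p-values measure the spread between these samples, and no source says what the replicates share.

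The genes, the partner list, the marker lists and the tests were chosen with earlier results of these data known. Every gene past the threshold was named in a comparison with at most 15 such genes, otherwise the 10 largest rises and 10 largest falls; the ATPases were named in any case, and up to 10 partners per comparison by size. Alternatives were a pseudocount of 1 or 64, no filter or stricter filters, quantile normalization, median centring, the mean of a gene's probe sets, the arrays of an experiment alone, a replicate block and leaving out each array; a filter on linear group means was added after seeing the data. Samples with the same replicate number deviated together with correlations of -0.05 to 0.14, and every pair exceeded 0.1 in 1 of 14 comparisons, so the numbers were not taken as pairs. Figures were drawn with matplotlib 3.10.9.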

Additional observations from a re-analysis of the deposited data

Results flagged for a closer look

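The effect of the Nanog morpholino on Arid5a differed between the times: the change against the control was 3.48 at 44 h and 0.31 at 20 h, and the difference between them was 3.17 on the log2 scale (limma, SE 0.71, adjusted p = 0.0227). The intensities were 1266, 663 and 2258 with the control and 1465, 879.7 and 2808 with the Nanog morpholino at 20 h, and 103, 79.5 and 56.1 and 1536, 1371 and 511 at 44 h. All 3 Nanog morpholino arrays were above all controls at 44 h, while the groups overlapped at 20 h. The difference lost its call with a pseudocount of 1 (adjusted p = 0.181), under quantile normalization (adjusted p = 0.157) and when fitted within the experiment only (adjusted p = 0.107), and its direction was the same in each alternative run. No cause was tested.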

How the results depend on the processing

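Alternatives left most counts and calls in place. Of 281 settings of a count of called genes, 239 gave a count within 1.5 times the reported one, and of 2296 settings of a single gene's call, 1984 kept direction and call, 309 lost the call and 3 turned direction. The 3 were partner subunits under the mean of all probe sets: Rsf1 (-0.18) and Baz1b (0.0202) between the Oct4 and the Sall4 morpholino, and Phf10 in uninjected embryos of the Nanog experiment (0.20). Of 130 calls, 55 held in every setting. The number of called genes moved by more than 1.5 times in these settings. For Oct4 at 20 h it was 1 under quantile normalization and 0 on the experiment's arrays alone. For Nanog at 20 h it was 1 with a pseudocount of 64, the stricter filter at the 75th percentile, the mean of all probe sets or the experiment alone. For Sall4 against the control at 44 h it was 1 with the experiment alone. For Nanog against the control at 44 h it was 1 with a pseudocount of 1, 4 with 64 or quantile normalization, and 5 with the mean of all probe sets. For Oct4 against Sall4 it was 3 with the experiment alone, for Sall4 against uninjected 5 with the mean of all probe sets, and for Nanog against uninjected 1 with a pseudocount of 1, 4 under quantile normalization and 1 with the replicate block. The Arid5a difference between times gave 0 calls with a pseudocount of 1, under quantile normalization and with the experiment alone. The cause of these shifts was not tested. Leaving out 1 array gave 0 to 3 called genes for Oct4, 0 to 1 for Sall4 and 0 to 0 for Nanog at 20 h; at 44 h against the control, 6 to 10 for Oct4, 2 to 5 for Sall4 and 1 to 3 for Nanog; 3 to 5 for Oct4 against Sall4; 6 to 9, 2 to 5 and 1 to 3 against uninjected embryos; 0 to 0 for each control injection; 8 to 12 and 26 to 33 over time; and 0 to 2 for the difference between times. The replicate block also lost the calls on Rbbp7 with the Sall4 morpholino against the control (adjusted p = 0.0533) and on Chd8 against uninjected embryos with the Oct4 (adjusted p = 0.0533) and the Nanog morpholino (adjusted p = 0.0532); the numbers are no shared origin by label.

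Intensities on the Nanog arrays and on the others were deposited on different scales and were compared only within each set. Dim genes such as Arid5a, Smarcd1 and Smarcd3 depend most on the pseudocount. Over time, another probe set passed in the opposite direction for Mta3, Ep400 and Ino80d. Further probe sets of called genes differed in sign without passing. In the Oct4 and Sall4 experiments 42 of 53 other probe sets had the sign of the brightest one, and in the Nanog experiment 24 of 28.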
